A study of Mus musculus with 2 samples.

Results

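The MiT/TFE family comprises 4 transcription factor genes of the mouse, Mitf, Tfeb, Tfec and Tfe3, and its mRNA levels were read from 2 RNA-seq libraries of mouse embryonic stem cells (mESCs) lacking Dicer, the RNase III enzyme that cuts miRNA precursors. The members are the rows whose Ensembl identifier belongs to these 4 symbols, 4 of the 43629 genes listed. The family was selected on earlier results of these data, the counts of its members in these same libraries with the 0 counts of Tfec among them, so its values are given as a description and without a test.

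Both libraries were made from polyA RNA of Dicer knockout mESCs with a 129/Ola background, derived from E14TG2a, a male line from a blastocyst. Replicate 1 was labelled passage 7 and replicate 2 passage 4. The study cut out parts of the Dicer1 gene with pairs of Cas9 guides, grew lines from single sorted cells in serum with LIF, and obtained 2 kinds of deletion, but the labels do not say which deletion each library carries. No control library was analysed here and each passage has 1 library, so that passage, line and library cannot be told apart and a difference between the libraries has no replicate check.

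The reads counted on genes summed to 41710122 in replicate 1 and 41566184 in replicate 2, and 17819 and 17461 genes had at least 10 counts. Dicer1, the targeted gene, had 1343 and 1510 counts. The study's deletions lie inside the gene, so reads on the remaining exons can still be counted. Which exons the reads fall on cannot be read from counts per gene, so these values do not check the labels. The paper reports a loss of Dicer mRNA in both mutants from its RNA sequencing, which was not examined here against a control library. Of 9 markers of embryonic stem cells, all 9 were measured in both libraries, with 39069 and 43025 counts of the pluripotency factor Pou5f1 and 47522 and 26215 of Nanog. The level, in counts per M counts on genes (CPM), summed to 9424 over the 9 markers in replicate 1 and 6184 in replicate 2, of which Dppa5a alone gave 4792 and 2041. The other 8 were within 2-fold between the libraries.

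MiT/TFE proteins carry a basic region that contacts DNA and a helix-loop-helix and leucine zipper that join a pair of them, either of the same member or of different members. They bind E-boxes, short palindromes around CACGTG, and are best known for driving genes of lysosomes and autophagy. When amino acids are plentiful, the kinase mTORC1 phosphorylates Tfeb, Tfe3 and some forms of Mitf at the lysosome, and 14-3-3 proteins hold them in the cytoplasm, which mRNA levels do not show. Mitf is the master regulator of melanocytes, Tfec is best known from macrophages and osteoclasts, and Tfe3 is known in mESCs for opposing the exit from pluripotency.

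The longest translated coding sequences encode 526 amino acids for Mitf, 534 for Tfeb, 317 for Tfec and 572 for Tfe3. Pairwise identity in their alignment was highest between Mitf and Tfe3, at 59.8%, and lowest between Tfeb and Tfec, at 44.3%. Among the 276 alignment columns in which all 4 proteins have a residue, 99 (35.9%) were identical in all. The longest run without a difference holds 17 residues and lies inside the most conserved stretch of the alignment, where 68 of 100 columns were identical. The 51 nt that encode this run are given below for each gene, joined from 2 neighbouring exons, because they show how far the members can be told apart at the RNA level where their proteins cannot.
Mitf: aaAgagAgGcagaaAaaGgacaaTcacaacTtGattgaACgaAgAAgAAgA
Tfeb: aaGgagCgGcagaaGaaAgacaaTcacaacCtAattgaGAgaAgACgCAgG
Tfec: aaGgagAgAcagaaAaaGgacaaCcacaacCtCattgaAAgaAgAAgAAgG
Tfe3: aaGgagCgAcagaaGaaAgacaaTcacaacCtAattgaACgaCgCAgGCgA

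Lower case marks the 35 positions that are the same in all 4 genes and capitals mark the 16 that are not. The stretch of Mitf covers residues 308 to 324 and lies in exons 7 and 8 of its transcript, at chr6:98006164-98010411 of GRCm38 on the plus strand. That of Tfeb covers residues 290 to 306 in exons 5 and 6, at chr17:47788260-47788925 on the plus strand. That of Tfec covers residues 107 to 123 in exons 4 and 5, at chr6:16840528-16844228 on the minus strand. That of Tfe3 covers residues 342 to 358 in exons 7 and 8, at chrX:7770797-7771011 on the plus strand. Any 2 members differed at 7 to 11 of the 51 nt, fewest between Mitf and Tfec. None of the exon bases of the 4 members lies in an exon of another gene in GENCODE M21, but the annotation used for counting was not checked for such overlaps. How reads with several alignments were counted is not given in the sources used here.

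Tfe3 (ENSMUSG00000000134; chrX:7762560-7775202, plus strand), the member with the most counts, had 4217 counts in replicate 1 and 6104 in replicate 2. These correspond to 101.1 CPM (95% Wilson interval 98.1 to 104.2) and 146.9 CPM (143.2 to 150.6), a mean of 124.0 ± 32.4 CPM (SD, n = 2). Intervals cover counting error within a library only. PCR reads without molecular identifiers are not independent molecules, so the intervals can be too narrow even for this error. Tfe3 stood above 78.0% of the 21474 protein-coding genes in replicate 1 and above 84.7% in replicate 2 by CPM per kb.

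Mitf (ENSMUSG00000035158; chr6:97807052-98021349, plus strand) had 2105 counts in replicate 1 and 3083 in replicate 2. The levels were 50.5 CPM (48.4 to 52.7) and 74.2 CPM (71.6 to 76.8), with a mean of 62.3 ± 16.8 CPM (SD, n = 2). Its intervals, like those of Tfe3, did not overlap between the libraries, and both genes were higher in replicate 2. By CPM per kb, Mitf stood above 72.9% and 80.7% of the protein-coding genes.

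Tfeb (ENSMUSG00000023990; chr17:47737030-47792419, plus strand) had 1061 counts in replicate 1 and 959 in replicate 2. The levels were 25.4 CPM (24.0 to 27.0) and 23.1 CPM (21.7 to 24.6), with overlapping intervals and a mean of 24.3 ± 1.67 CPM (SD, n = 2). It stood above 62.8% and 64.2% of the protein-coding genes by CPM per kb.

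Tfec (ENSMUSG00000029553; chr6:16833373-16898441, minus strand) had 0 counts in both libraries. A count of 0 allows up to 3 counts, or 0.0719 CPM in replicate 1 and 0.0722 CPM in replicate 2, and the 95% Wilson interval, as used for the other members, reaches 0.0921 and 0.0924 CPM. Tfec mRNA was thus not detectable at this depth. A count of 0 in both libraries is not particular to Tfec, since 3905 of the 21474 protein-coding genes (18.2%) had it. The study's supplement gives counts of Tfec in wild-type cells. They were not examined here, so a difference of Tfec from wild-type cells was not tested. In bulk RNA, fewer cells with a transcript and less RNA per cell cannot be told apart, and this holds for every level given here.

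Levels can be compared between genes only per length, so CPM was divided by the summed length of the exons of each gene in kb, which is 9.261 for Tfe3, 6.196 for Mitf, 5.669 for Tfeb and 5.594 for Tfec. On this scale Tfe3 had 10.9 CPM per kb in replicate 1 and 15.9 in replicate 2 (13.4 ± 3.49, SD, n = 2). Mitf had 8.15 and 11.97 (10.1 ± 2.71), and Tfeb had 4.49 and 4.07 (4.28 ± 0.30). The order was Tfe3, Mitf, Tfeb and Tfec in both libraries. The means of Tfe3 and Mitf differed by less than the SD of Tfe3, although Tfe3 was 1.34 times as high as Mitf in replicate 1 and 1.33 times in replicate 2. Over Tfeb, the level of Tfe3 was 2.43 times as high in replicate 1 and 3.90 times in replicate 2, and that of Mitf 1.81 and 2.94 times.

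Of the summed level of the family, 23.6 CPM per kb in replicate 1 and 31.9 in replicate 2, Tfe3 made up 46.4% and 49.7%. Mitf made up 34.6% and 37.5%, and Tfeb 19.1% and 12.8%. The length that is used matters for the lower part of this order. With the longest transcript in place of all exons, Mitf over Tfeb had a log2 ratio of -0.07 in replicate 1 and 0.63 in replicate 2, so that the order of Mitf and Tfeb in replicate 1 turned. Which of the annotated transcripts, 14 of Tfe3, 8 of Mitf, 15 of Tfeb and 5 of Tfec, were made in these cells cannot be read from counts per gene.

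Set beside 8 other factors of the helix-loop-helix and leucine zipper class that bind E-boxes, Tfe3 was the 5th and Mitf the 6th of 12 by mean CPM per kb, Tfeb the 10th and Tfec the last. The 8 are a selection from that class, without Myc, Mycn or Max, so these places hold among the 12 only. In replicate 1 alone Tfe3 was the 6th and Mitf the 8th, and in replicate 2 they were the 5th and the 6th. Srebf2, an activator of cholesterol synthesis genes on chromosome 15, had the highest mean at 40.8 ± 21.7 CPM per kb (SD, n = 2). It was the 3rd in replicate 2, where Usf1 was the 1st. Usf1, a ubiquitous factor, followed with 28.9 ± 5.03, Tfap4 with 28.7 ± 2.82 and Mlx, the partner of the glucose sensors Mlxip and Mlxipl, with 20.7 ± 0.86. Mitf was next to Srebf1, at 9.99 ± 3.74 CPM per kb, and the means of these genes differed by less than the spread of either. Mlxipl, at 2.13 ± 0.87, was the only one of the 12 between Tfeb and Tfec.

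**Figure D1:**
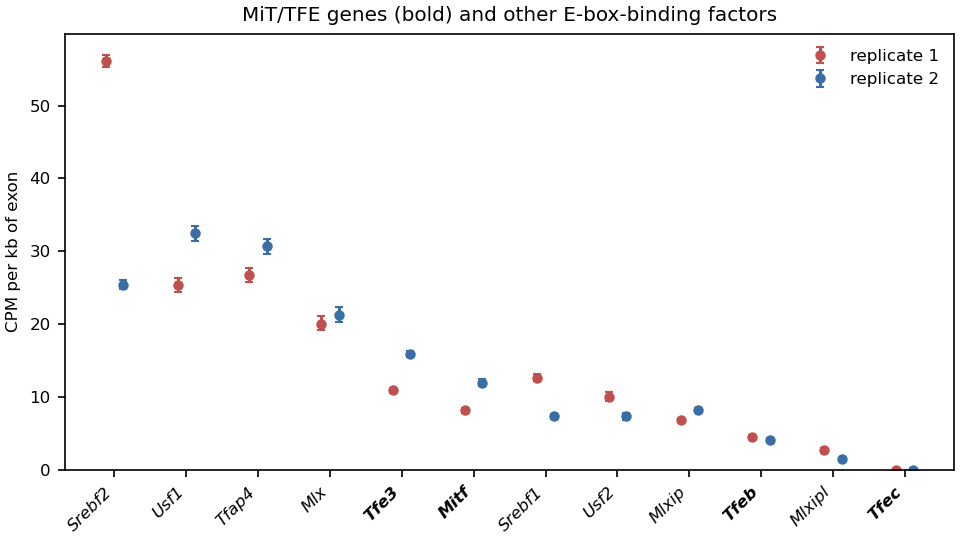
Level in CPM per kb of exon length (vertical axis) of the 4 MiT/TFE genes (bold) and 8 other E-box-binding factors, ordered by mean, with a point for each Dicer_KO library (replicate 1 red, replicate 2 blue) and bars for its 95% counting interval. Tfe3 and Mitf are higher in replicate 2, at 15.9 and 11.97 against 10.9 and 8.15, Tfeb lies near 4 in both libraries, and Tfec is at 0 in both.

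Between the libraries, counts were scaled by the TMM factors of edgeR and each gene was given a log2 ratio, replicate 1 over replicate 2, with a pseudocount of 1. This ratio was -0.66 for Tfe3 (95% counting interval -0.71 to -0.60) and -0.67 for Mitf (-0.75 to -0.59), which makes Tfe3 1.58-fold and Mitf 1.59-fold higher in replicate 2. The ratio was 0.02 for Tfeb (-0.10 to 0.15), an interval that holds 0. Tfec has no ratio. Of the 17788 genes that averaged 10 counts or more, 2533 were beyond 2-fold higher in replicate 1 (14.2%) and 1270 beyond 2-fold lower (7.14%), and 0 of the 3 members in this set were beyond 2-fold in either direction (21.4% of all genes in the set).

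The ratio of Mitf was exceeded in size by 34.5% of the genes and that of Tfe3 by 35.4%. The median ratio over all genes was 0.02, with quartiles at -0.38 and 0.54, so Tfe3 and Mitf lay below the lower quartile and Tfeb at the median. The median over the genes of its chromosome was -0.12 for Tfe3 on chromosome X, 0.03 for Mitf on chromosome 6 and 0.05 for Tfeb on chromosome 17. Chromosome 15, which holds no member, stood apart with a median of 0.59, and genes on it are named as such below.

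**Figure D2:**
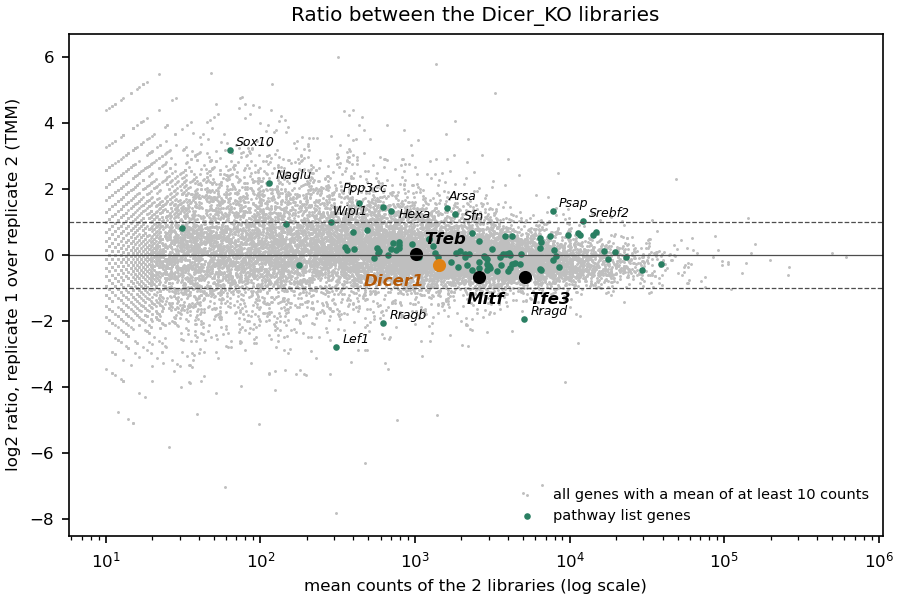
Log2 ratio of replicate 1 over replicate 2 after TMM scaling (vertical axis) against the mean count of the libraries (horizontal axis, log scale) for the 17788 genes averaging 10 counts or more. Black points are Tfe3, Mitf and Tfeb, the orange point is Dicer1, green points are genes of the pathway lists, grey points are all genes and the dashed lines mark 2-fold. Tfe3 and Mitf lie close together at -0.66 and -0.67, inside the dashed lines.

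The measured genes beside Tfe3, Mitf and Tfeb lay on both sides of 0. Those beside Tfec, which has no ratio, lay above 0. Around Tfe3, Ccdc120 had a log2 ratio of 0.38 and Praf2 of 0.03 on one side, and Gripap1 of -0.34 and Kcnd1 of -0.12 on the other. Around Mitf, Frmd4b, 189.5 kb away, had 612 and 171 counts (1.71) and Foxp1, 904 kb away, had 1902 and 1944 (-0.15). Lmod3 and Gm765 had at most 2 counts in each library. Pgc, which ends 2.55 kb before Tfeb, had 256 and 76 counts (1.62), Frs3 398 and 228 (0.68), Mdfi 415 and 304 (0.33) and Foxp4 2795 and 4251 (-0.73). Tfec lies between genes with reads, all far from it. Tes, 167 kb away, had 1667 and 667 counts (1.20) and Cav2, 382.7 kb away, 36 and 20 (0.70). Mdfic, 1031 kb away, had 2682 and 2411 (0.03) and Foxp2, 1391 kb away, 44 and 4 (3.07).

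The regulators that act on the family at the lysosome were taken from 8 lists of 38 genes, written with earlier results of these data known. All 38 passed the minimum of 10 counts. Of these, 2 were beyond 2-fold higher in replicate 1 and 2 beyond 2-fold lower (background 14.2% and 7.14%), with a median of -0.01 beside 0.02 for all genes.

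The Rag GTPases, which bring Tfeb, Tfe3 and Mitf to the lysosomal surface, held both genes that were lower in replicate 1. Rragd, itself a known target of the family, had 2247 counts in replicate 1 and 7962 in replicate 2, a log2 ratio of -1.95. Rragb, on chromosome X, had 257 and 992 counts, a ratio of -2.07. Rraga had 2589 and 3247 counts (-0.45) and Rragc 2059 and 2601 (-0.46). All 4 were thus higher in replicate 2, where 51.3% of all genes with a ratio were higher in replicate 1. Of the 4, 2 were beyond 2-fold (background 7.14%), and the median was -1.20. Per kb of exon length, Rragd was below Rragc in replicate 1, at 10.4 against 14.8 CPM per kb, and above it in replicate 2, at 37.0 against 18.7.

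Ragulator, the scaffold that anchors the Rag GTPases, had 0 of 5 subunits beyond 2-fold and a median of 0.21. The background for this list and the others of this paragraph was 21.4% in either direction. The folliculin complex activates Rragc and Rragd, and none of its 3 genes was beyond 2-fold. Flcn had 1965 and 1738 counts (0.05), Fnip1 2774 and 3096 (-0.28), and Fnip2 2053 and 3100 (-0.72), a ratio close to those of Tfe3 and Mitf. Of mTORC1, the kinase complex that phosphorylates the family, 0 of 5 genes were beyond 2-fold (median -0.06). The same count was 0 of 4 for the TSC complex with Rheb (median -0.13), which sets mTORC1 activity, and 0 of 4 for GATOR1 with Slc38a9 (median 0.20), which relay amino acid levels.

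Calcineurin removes the phosphates from Tfeb when the channel Mcoln1 releases lysosomal calcium. Mcoln1 had 1487 and 969 counts (0.50), and of the calcineurin genes Ppp3cc, with 666 and 203 counts (1.59), was beyond 2-fold (background 14.2%). The other 3, Ppp3ca, Ppp3cb and Ppp3r1, had ratios of 0.04, 0.03 and 0.00. Among the 14-3-3 genes and the exporter Xpo1, Sfn had 2631 and 1024 counts (1.24, background 14.2%) and the other 7 were within 2-fold. Ywhae had the highest level per kb of them, from 37207 and 41234 counts (-0.27).

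Genes that the family is known to drive were counted in 4 lists. Of 22 lysosomal hydrolases and their activators, 4 were beyond 2-fold higher in replicate 1 (18.2%, background 14.2%) and 0 beyond 2-fold lower (background 7.14%). The median was 0.55, and 19 of the 22 were above 0 and 3 below it, where 51.3% of all genes with a ratio were above 0. Their summed level was 2655 CPM in replicate 1 and 1835 CPM in replicate 2, the opposite order to that of Tfe3 and Mitf. Markers of embryonic stem cells had a median of 0.04, with 5 of 9 above 0 and Dppa5a (1.11) beyond 2-fold, and their part in this result was not tested.

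Naglu, which degrades heparan sulfate, had 191 and 38 counts (2.18), the largest ratio of the 22. Arsa, the arylsulfatase that acts on sulfatide, had 2405 and 819 (1.43) and lies on chromosome 15. Psap, the precursor of the saposins, had 11444 and 4163 (1.34), and Hexa, an enzyme of ganglioside breakdown, had 1019 and 373 (1.33). These 4 are the genes beyond the threshold. Just inside it were Galns, with 390 and 179 counts (1.00, 1.997-fold), and Sgsh, with 197 and 94 (0.94). Among the genes of highest level per kb were Scpep1, with 18261 and 15377 counts (0.13) and the protease Ctsd, with 12240 and 7341 (0.62). Tpp1, a tripeptidyl peptidase, was among the 3 below 0, with 3477 and 4483 counts (-0.49). Without chromosome 15, 3 of 21 were beyond 2-fold higher and the median was 0.52, where 13.6% of the remaining genes were beyond 2-fold higher and 7.37% lower.

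**Figure D3:**
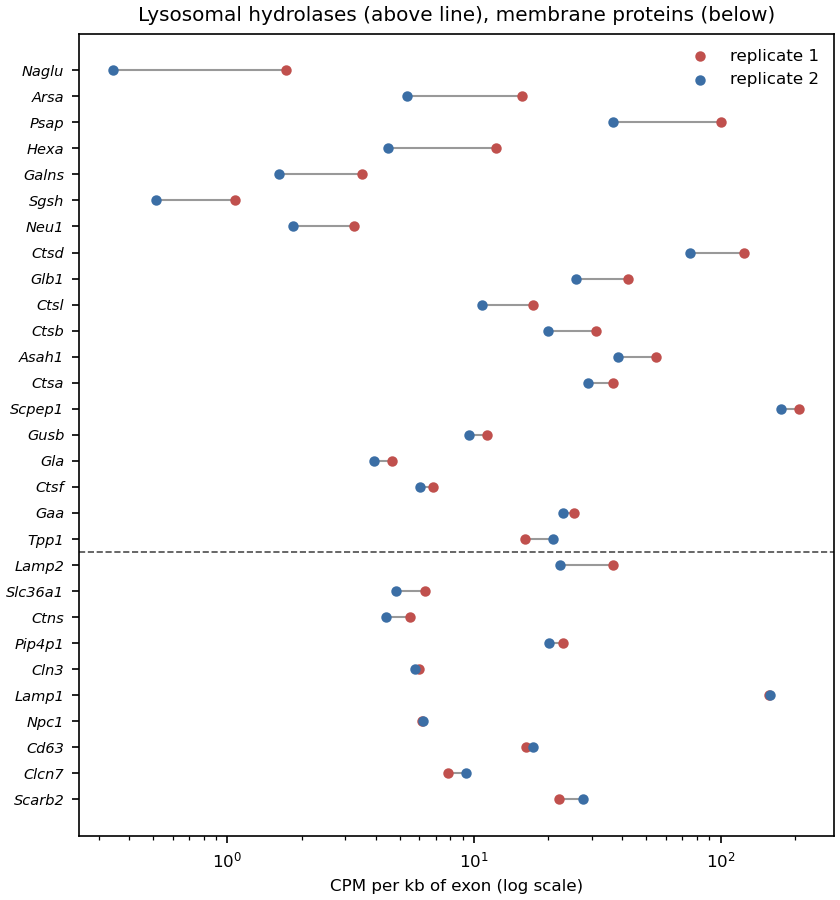
Level in CPM per kb of exon length (horizontal axis, log scale) of 19 of the 22 lysosomal hydrolase and activator genes (above the dashed line) and 10 lysosomal membrane protein genes (below it), with replicate 1 in red, replicate 2 in blue and a line joining them. Levels are not scaled by TMM. Replicate 1 is higher for every hydrolase shown except Tpp1, while the membrane protein genes lie on both sides.

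Lysosomal membrane proteins had 0 of 10 genes beyond 2-fold (background 21.4% in either direction), with 4 above 0 and 6 below it and a median of -0.09. Lamp1, a main component of that membrane, had 17611 and 17601 counts (-0.12), Lamp2 had 14569 and 8867 (0.59) and Scarb2, an integral membrane protein of lysosomes, had 5805 and 7217 (-0.44). Of 15 genes of autophagy and vesicle fusion, 1 was beyond 2-fold higher in replicate 1 (background 14.2%) and 0 lower (background 7.14%). It was Wipi1, which binds lipids on forming autophagosomes, with 931 and 310 counts (1.46). The kinase Ulk1, which starts autophagy, had 18901 and 10622 (0.71), the receptor Sqstm1 had 8750 and 7156 (0.17), and the median of the list was 0.16.

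Of 7 other genes named as targets, 6 passed the minimum and 1, Rragd, was beyond 2-fold (background 21.4% in either direction). Gpnmb, a glycoprotein used as a readout of Tfe3 activity, had 41 and 21 counts, and Ppargc1a, a coactivator for mitochondrial genes, had 2 and 0. Esrrb, a pluripotency factor that lies downstream of Tfe3 in mESCs, had 23553 and 22631 counts (-0.06). Hif1a, a target of Mitf in melanocytes, had 5727 and 7096 (-0.43). Flcn and Fnip2 also belong to this list.

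Over all 14 pathway lists, 99 of 101 genes passed the minimum, 9 were beyond 2-fold higher in replicate 1 (9.09%, background 14.2%) and 3 beyond 2-fold lower (3.03%, background 7.14%). The median was 0.05. The lists hold 5 genes on chromosome 15, and without that chromosome 6 of 94 were higher and 3 lower.

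**Figure D4:**
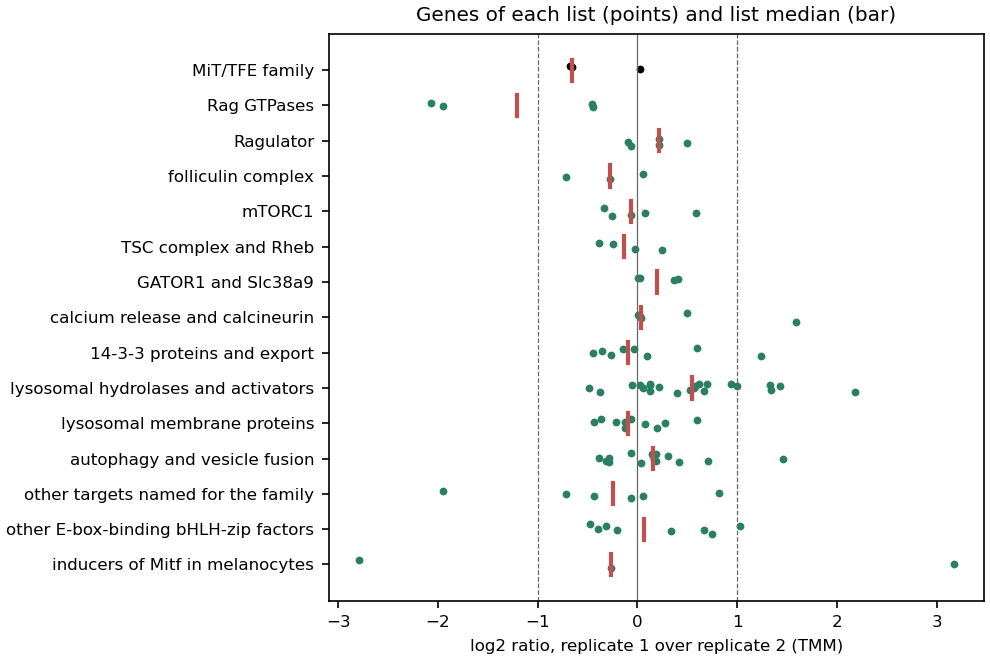
Log2 ratio of replicate 1 over replicate 2 after TMM scaling (horizontal axis) for Tfe3, Mitf and Tfeb (black, first row) and for the genes of the 14 pathway lists (green, 1 list per row), with a point for each gene, a red bar for the median and dashed lines at 2-fold. The Rag GTPases have the lowest median of the 14 lists, at -1.20, and the hydrolases lie mostly above 0, with a median of 0.55.

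E-boxes were counted in RefSeq promoters of GRCm38.p6, from 250 bases before to 50 after each start. The motif CACGTG is its own reverse complement, so a match on one strand is a match on both, and it was found in 2187 of 27025 genes (8.09%). The longer TCACGTG, read on both strands and always a part of such a match, was found in 1160 genes (4.29%). The promoters of the family itself held 0 matches in 4 of 4 genes, over 3 starts of Mitf, 3 of Tfeb, 1 of Tfec and 2 of Tfe3. Of the 25 lysosomal genes with a promoter in this set, 15 held CACGTG (60.0%) and 13 held TCACGTG. These were 10 of 16 hydrolases and 5 of 9 membrane proteins, against 1 of 11 genes of autophagy. The lysosomal genes were listed as ones that the family is known to drive, and the family binds this motif. Their share is thus not independent of how they were chosen.

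Among the hydrolases, genes on both sides of the 2-fold threshold held the match. Its relation to the difference between the libraries was not tested. Of the 4 beyond 2-fold, Naglu and Arsa held CACGTG and Psap and Hexa did not, and it was held by 8 of the 12 within 2-fold that had a promoter. Among the Rag GTPases, Rragb held 3 matches and Rragc 1, and Rragd and Rraga held none in this window. A match is a description of the letters and not a site bound in these cells. The following windows, with CACGTG in capitals, are from genes on either side of the threshold: Naglu and Arsa were higher in replicate 1, Rragb was lower, and Lamp1, with 4 matches of which 1 is shown, was within 2-fold.
Naglu: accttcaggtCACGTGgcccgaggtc
Arsa: aactcagtgtCACGTGttgtctgctc
Rragb: gagcccgggcCACGTGatggcgggtg
Rragb: agggtagcggCACGTGacaggccctg
Rragb: ggcaggttccCACGTGatcctggcct
Lamp1: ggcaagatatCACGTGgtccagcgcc

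The window of Naglu lies at chr11:101070011-101070036 on the plus strand, with its motif at position -73 from the start. That of Arsa lies at chr15:89477425-89477450 on the minus strand, with the motif at -16. Those of Rragb lie at chrX:153139821-153139846, chrX:153139912-153139937 and chrX:153139945-153139970 on the plus strand, with motifs at -127, -36 and -3. That of Lamp1 lies at chr8:13159090-13159115 on the plus strand, with the motif at -61. All 6 also hold TCACGTG on one strand or the other.

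Since cells without Dicer lack most miRNAs, the 3′ untranslated regions of the members were searched for matches to the seeds of miRNAs that are abundant in mESCs. The seed, bases 2 to 8 of the mature miRNA, is in capitals, and the sequences are from RefSeq.
mmu-miR-295-3p: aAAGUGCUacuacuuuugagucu
mmu-miR-16-5p: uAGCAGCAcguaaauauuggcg

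The seed of mmu-miR-295-3p is shared by 5 mature miRNAs, with mmu-miR-291a-3p and mmu-miR-294-3p among them, and pairs with AGCACTT. The seed of mmu-miR-16-5p is shared by 10, with mmu-miR-15a-5p among them, and pairs with TGCTGCT. Neither match was found in Mitf (3174 nt searched), Tfeb (601 nt), Tfec (580 nt) or Tfe3 (1271 nt). Of 20583 genes, 2715 (13.2%) held AGCACTT and 3781 (18.4%) held TGCTGCT. An absent match says only that these letters are not in the annotated region, and other miRNAs were not searched.

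Levels of genes that mark the cell types in which Mitf and Tfec are best known were read in the same libraries. Of 10 melanocyte markers, 6 had too few reads for a ratio, and the pigment enzymes Tyrp1, at 0 and 0 counts, Tyr, at 0 and 1, and Dct, at 3 and 0, were at or near 0. Pmel, the amyloid protein of melanosomes, had 1014 and 1023 counts and made up most of the summed 31.4 and 33.6 CPM of the list. Trpm1, whose promoter Mitf activates in melanocytes, had 65 and 238 counts (-1.98), and Mlana 110 and 115.

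The 4 genes known to induce Mitf in melanocytes varied widely between the libraries. Sox10, on chromosome 15, had 116 and 11 counts (3.17), Lef1 had 83 and 535 (-2.80), Pax3 had 18 and 0, and Creb1 had 4008 and 4423 (-0.26). Of the 3 that passed the minimum, Sox10 was thus beyond 2-fold higher in replicate 1 (background 14.2%) and Lef1 in replicate 2 (background 7.14%).

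Of 8 macrophage markers, 5 had a mean below 10 counts, Adgre1 with 0 and 0 and Ptprc with 5 and 4, and the summed level of 36.1 and 35.1 CPM came mostly from Cd68, at 1301 and 1409 counts (-0.24). Of the 3 with a ratio, the other 2 were beyond 2-fold higher in replicate 1 (background 14.2%). Csf1r, the receptor for the macrophage growth factor, had 95 and 1 counts (5.52, 95% counting interval 3.94 to 11.77). Spi1, the factor that pairs with the family in myeloid cells, had 82 and 31 (1.26). The osteoclast list summed to 36.2 and 16.1 CPM, of which Acp5, the tartrate-resistant phosphatase, gave most with 1381 and 545 counts (1.22). Ocstamp, which acts in osteoclast fusion, had 37 and 4 (2.83) and the osteoclast protease Ctsk had 15 and 27 (-0.93). Of the 6 osteoclast genes, 2 were beyond 2-fold higher in replicate 1 and 0 lower (background 14.2% and 7.14%). Of 6 mast cell markers, 5 had at most 3 counts in both libraries, and Hdc had 530 and 475. Markers of differentiation summed to 62.9 and 59.5 CPM, and 7 of 11 passed the minimum of 10 counts. Dab2, on chromosome 15, had 52 and 17 counts and Gata6 had 16 and 5, both beyond 2-fold higher in replicate 1 (background 14.2%). Fgf5, at 9 and 20, was beyond 2-fold lower (background 7.14%). Markers of fibroblasts, which are used as feeder cells, summed to 22.4 and 17.5 CPM, mostly from Thy1 at 823 and 621 counts. Pdgfra had 83 and 87, Col1a1 20 and 18, and Postn 0 and 0.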

How the data were processed

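Raw counts per gene of 2 libraries of Dicer_KO mESCs were used as deposited by the authors. Per the labels, polyA RNA was extracted with Trizol and made into libraries with the TruSeq RNA kit by a reverse-stranded protocol. The submitters' processing notes name STAR 2.4.2a, featureCounts 1.4.5-p1 and mm10. Counts are on Ensembl genes of GRCm38, and per the study's methods reads on overlapping regions were not counted.

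Symbols, exons and transcripts were those of GENCODE M21 (GRCm38), which lacks 1167 of the 43629 identifiers. CPM used the totals of 41710122 and 41566184 counts, so that 3 counts correspond to 0.0719 and 0.0722 CPM. Libraries were scaled with TMM (edgeR 4.0.16, R 4.3.3). Log2 ratios used a pseudocount of 1 and genes that averaged 10 counts or more, and 2-fold was the threshold. Intervals are Wilson for CPM and exact conditional binomial for ratios (scipy 1.17.1), at 95%. Proteins translated from the annotation were aligned with MAFFT 7.526, and promoters and miRNAs were from RefSeq. The log2 ratio and the 2-fold call were first tested on simulated counts, scaled by their totals and not by TMM. The other steps were not part of that test. With 1 condition no test was made.

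The members and lists were chosen with earlier results of these data known. Genes named are the members, Dicer1, the 2 nearest coding genes on either side of each member, and those of the lists that are beyond 2-fold, highest or lowest, or on which a sentence turns. Not every gene of the lists is reported by name here, although all enter the counts and medians. Alternatives were DESeq2 1.42.0 size factors, total and raw counts, another pseudocount, other count minimums, a 4-fold threshold, other gene lengths, leaving out a library, and, chosen after seeing the data, leaving out chromosome 15 and another choice of transcript for the seed search.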

Additional observations from a re-analysis of the deposited data

How the results depend on the processing

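No paired analysis was possible because the libraries share 1 condition. For 60 results, 360 values were computed under alternatives, of which 2 changed sign. Relative to the median of all genes, the median of the inducers of Mitf went from -0.28 to 1.45 with no filter on low counts, and that of the other E-box factors from 0.05 to -0.20 without chromosome 15. When total counts replaced TMM, the all-gene median shifted from 0.02 to 0.14. With it the log2 ratio between the libraries became -0.56 for Mitf and -0.54 for Tfe3, and with raw counts -0.55 and -0.53, so relative to that median the members kept their place. The mean log2 ratio of levels per kb depended on the length used. Tfe3 over Mitf was 0.41 with all exons, 0.62 with the longest transcript and 0.87 with the coding length. Tfe3 over Tfeb was 1.62, 0.90 and 2.23, and Mitf over Tfeb 1.21 and, with the longest transcript, 0.28, where replicate 1 alone had -0.07. Genes beyond 2-fold higher numbered 2533, but 4050 with no filter on low counts, 1292 at a mean of at least 100 counts and 741 at 4-fold. Those lower numbered 1270, but 3888, 535 and 275. Pathway genes higher in replicate 1 numbered 9, and 2 at 4-fold. More or fewer genes tested and the wider threshold account for these counts by construction. With each library left out in turn, CPM was 50.5 to 74.2 for Mitf, 23.1 to 25.4 for Tfeb, 0 for Tfec and 101.1 to 146.9 for Tfe3. The log2 ratio of levels was 0.41 to 0.42 for Tfe3 over Mitf, 1.28 to 1.96 for Tfe3 over Tfeb and 0.86 to 1.56 for Mitf over Tfeb. With 2 libraries these are the values of the single libraries, and a ratio between libraries could not be made with either left out. Depth sets the limit for Tfec, at 3 counts or 0.0722 CPM in replicate 2.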
